A study of Homo sapiens with 9 samples.

Results

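The MYC, MAX and MXD network is a family of transcription factors, and 10 of its genes, chosen by symbol, were followed here among the 56541 genes of the deposited table. They were MYC, MYCN, MAX, MLX, MXD1, MXD3, MXD4, MXI1, MNT and MGA. All encode basic helix-loop-helix leucine zipper proteins that bind DNA as dimers, mostly at the E-box CACGTG. MYC and MYCN pair with MAX and activate growth genes, while the MXD proteins, MXI1 and MNT pair with the same MAX and recruit the SIN3 and histone deacetylase co-repressor. MGA brings MAX to a polycomb complex, and MLX is the counterpart of MAX for the glucose-sensing factors MondoA and ChREBP. In myeloid cells MYC is known for keeping progenitors growing, and its level falls as they mature.

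The RNA came from MOLM-13, a leukaemia line of human monocytic origin that carries a KMT2A fusion, and was measured in 3 groups of 3 libraries. The first group carried a control hairpin (shCONTROL) and the second a hairpin against BCLAF1 (shBCLAF1), a nuclear RNA-binding protein. The third was RNA precipitated with BCLAF1 from shCONTROL cells (RIP). All groups, controls included, had received doxycycline at 200 ng/µL for 4 days, and 2000000 cells were taken for RNA-seq and 15000000 for RIP. The labels do not say that replicates came from separate cultures or whether a line was 1 clone, so p-values measure only the spread between these libraries.

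Libraries held 25819144 to 36635268 estimated counts, so that 3 counts equalled 0.0789 to 0.118 CPM (counts-per-million, the library totals being scaled by the TMM method of edgeR over all 9 libraries). BCLAF1 itself measured 325, 328 and 312 CPM in shCONTROL and 115, 125 and 99.96 CPM in shBCLAF1, every knock-down library lying under every control. Of 12 MOLM-13 markers 11 were detected, CD14 being at 0 in all libraries, and the erythroid and fibroblast markers were at 0 throughout. Of the lymphoid markers CD3D measured 10.99 to 11.9 CPM in shCONTROL, while CD3E, CD8A and MS4A1 were at 0. RIP replicate 2 stood above the other RIP libraries for MYC, MNT and MLXIP, whose RIP fold changes are given without it too. It was also the highest RIP library for other named genes, such as FBXW7, NCL and EP400.

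The E-box links these factors to their target genes, so promoters that hold one were read from RefSeq (GRCh38.p14). A promoter here runs from 250 bases before to 50 bases after a gene's start. CACGTG reads the same on both strands, and 7.26% of all 35116 promoters of this length held it. The promoter table matched 9 of the 10 network genes, all but MYC, with 14 promoters, and 3 of these held the motif, in MXD4, MNT and MLX. In a list of 50 genes known as activated by MYC, described further on, 41 were matched and 22 of them had an E-box in a promoter (53.7%), against 8.77% of all genes in that table and 12.7% of those tested after knock-down. Among other lists described further on, it stood in 4 of 8 matched MYC-repressed genes, 4 of 13 proliferation genes and 3 of 10 MYC cofactors. It stood in 2 of 11 regulators of MYC protein turnover, 1 of 10 MGA partners, 1 of 16 SIN3 co-repressor genes and 0 of 13 myeloid maturation genes. The stretches before the start of the 3 network genes, and of the 5 listed genes that fell after knock-down with the smallest p among those with an E-box there, are printed 5′ to 3′ with CACGTG in capitals. A match is a description of these letters and not evidence of binding.
MXD4 (chr4:2262315-2262359, minus strand): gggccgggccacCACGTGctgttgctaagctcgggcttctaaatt
MNT (chr17:2401221-2401280, minus strand): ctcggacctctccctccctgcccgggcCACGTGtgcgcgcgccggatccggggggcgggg
MLX (chr17:42567023-42567082, plus strand): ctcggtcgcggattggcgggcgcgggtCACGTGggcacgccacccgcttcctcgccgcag
ODC1 (chr2:10448013-10448068, minus strand): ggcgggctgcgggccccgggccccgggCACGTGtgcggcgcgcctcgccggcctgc
HSPD1 (chr2:197500330-197500389, minus strand): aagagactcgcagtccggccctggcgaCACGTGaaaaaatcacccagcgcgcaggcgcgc
EXOSC5 (chr19:41397416-41397475, minus strand): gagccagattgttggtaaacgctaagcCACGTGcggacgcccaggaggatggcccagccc
PRMT3 (chr11:20387502-20387561, plus strand): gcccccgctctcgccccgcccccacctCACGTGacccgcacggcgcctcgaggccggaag
SRM (chr1:11060185-11060244, minus strand): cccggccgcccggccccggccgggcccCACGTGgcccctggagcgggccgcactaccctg

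The knock-down comparison asks what changes when BCLAF1 is depleted. MYC RNA fell by 45.6%, and the genes of its partners and antagonists moved little. Of the 10 network genes 9 passed the filter on low counts. A gene was called where the quasi-likelihood test of edgeR gave a Benjamini-Hochberg adjusted p, taken over all genes, under 0.05. By this rule 3 network genes were called, 1 lower (MYC) and 2 higher (MAX and MXD3). Among all 16961 genes tested 32.3% were called, 16.9% lower and 15.5% higher, so the number of network genes called was near the background. No network gene reached a log2 fold change (the log2 of knock-down over control) of 1 in size. Of all genes 1.77% were called with such a change upward and 2.24% downward.

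MYC (ENSG00000136997; chromosome 8, 127735434 to 127742951 in GRCh38.p14, as for all positions given) measured 688, 663 and 687 CPM in the shCONTROL libraries and 375, 361 and 370.5 CPM in the shBCLAF1 libraries. The groups lay far apart compared with the spread inside each, at 679 ± 14.2 and 369 ± 7.24 CPM (SD, n = 3 each). The log2 fold change was -0.88 (SE 0.034, 95% interval -0.96 to -0.80, adjusted p 9.73e-05, edgeR). By p MYC ranked 26 among the 16961 genes tested, and by log2 fold change 854 from the lowest. Over 12 alternatives its log2 fold change stayed between -0.89 and -0.83, with an adjusted p of at most 0.00506. In these bulk libraries fewer cells with MYC RNA and less MYC RNA per cell cannot be told apart.

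MYCN (ENSG00000134323; chromosome 2, 15940550 to 15947004), the paralogue best known from neuroblastoma, was listed at 0 in all 9 libraries, as was its antisense gene MYCNOS. A 0 in this table is not firm, since 165 genes of the control group, 175 of the knock-down and 226 of the RIP were at 0 beside at least 100 counts in another library of the group. MYCL, the remaining MYC paralogue, was low but present, at 12.7 ± 1.28 CPM in shCONTROL and 17.4 ± 0.971 CPM in shBCLAF1 (SD, n = 3 each). It rose with a log2 fold change of 0.45 (adjusted p 0.0149, SE 0.097, edgeR), opposite in sign to MYC. The MYCL call was lost with the replicate number as a block (adjusted p 0.0552).

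MAX (ENSG00000125952; chromosome 14, 65006101 to 65102695), the obligate partner of MYC, measured 74.6, 69.4 and 70.05 CPM in shCONTROL and 79.7, 82.1 and 81.1 CPM in shBCLAF1. The groups did not overlap, but the rise was small, with a log2 fold change of 0.19 (adjusted p 0.0187, SE 0.042, edgeR). It lost its call in 5 of 12 alternatives: the replicate block (adjusted p 0.0543), the fit of all 9 libraries (0.108) and the fits without shCONTROL replicate 2 (0.0692), shCONTROL replicate 3 (0.0807) or shBCLAF1 replicate 2 (0.0706). FNTB overlaps MAX over 56550 bases in RefSeq, and whether the counting used strand is not given in the sources used here, so reads of overlapping genes may not be told apart.

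MLX (ENSG00000108788; chromosome 17, 42567100 to 42573203) measured 58.04, 57.9 and 62.3 CPM in shCONTROL and 79.9, 74.9 and 61.7 CPM in shBCLAF1. Replicate 3 of the knock-down lay among the controls, so the groups overlapped. The log2 fold change of 0.28 (95% interval 0.039 to 0.53) did not pass (adjusted p 0.0799, edgeR), but without that library it was 0.39 with an adjusted p of 0.00728. The library left out had the lowest BCLAF1 of the knock-down group, at 99.96 CPM. MLX also passed under total counts (adjusted p 0.0343) and in DESeq2 (0.0363). PSMC3IP overlaps MLX over 894 bases. MLXIP, which encodes the MLX partner MondoA, rose with a log2 fold change of 0.28 (adjusted p 0.00565, SE 0.046, edgeR). MLXIPL, which encodes ChREBP, stood at 4.33 ± 0.962 CPM in shCONTROL and 4.74 ± 1.27 CPM in shBCLAF1 (SD, n = 3 each) and did not pass (adjusted p 0.733, edgeR).

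TXNIP and ARRDC4, arrestin-family genes known as direct MondoA and MLX targets, went in opposite directions. TXNIP measured 305 ± 43.1 CPM in shCONTROL and 197 ± 5.37 CPM in shBCLAF1 (SD, n = 3 each), with a log2 fold change of -0.63 (adjusted p 0.00524, edgeR). ARRDC4 measured 14.4 ± 0.978 and 22.1 ± 1.14 CPM in the same order (SD, n = 3 each), with a log2 fold change of 0.62 (adjusted p 0.00239, edgeR). The MLXIP and ARRDC4 calls were lost when all 9 libraries entered 1 fit (adjusted p 0.616 and 0.102).

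Among the antagonists of MYC, MXD3 (ENSG00000213347; chromosome 5, 177305499 to 177312752) is known as the MXD gene expressed in dividing cells. It measured 76.4, 67.3 and 74.6 CPM in shCONTROL and 87.3, 80.1 and 85.9 CPM in shBCLAF1, without overlap. Its log2 fold change of 0.22 (adjusted p 0.0407, SE 0.062, edgeR) was near the threshold. The call was lost in 7 of 12 alternatives: with no filter (adjusted p 0.0583), in the fit of all 9 libraries (0.221), without shCONTROL replicate 2 (0.0728) or 3 (0.0839), and without shBCLAF1 replicate 1 (0.116), 2 (0.0539) or 3 (0.0932). PRELID1 overlaps MXD3 over 1451 bases.

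MXD1 (ENSG00000059728; chromosome 2, 69915109 to 69942945), which is known to be induced when myeloid cells mature, did not pass. It measured 54.3, 61.9 and 50.5 CPM in shCONTROL and 57.8, 58.3 and 46.9 CPM in shBCLAF1, and the groups overlapped. Its log2 fold change was -0.028 (95% interval -0.31 to 0.25, adjusted p 0.881, edgeR), and its sign turned under 3 alternatives.

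MXD4 (ENSG00000123933; chromosome 4, 2247432 to 2262109), a further MAX-binding antagonist, measured 18.3, 17.98 and 17.5 CPM in shCONTROL and 20.6, 18.4 and 21.1 CPM in shBCLAF1. The groups just failed to overlap, and the log2 fold change of 0.16 did not pass (95% interval -0.015 to 0.34, adjusted p 0.146, edgeR). MXI1 (ENSG00000119950; chromosome 10, 110207605 to 110287365), also called MXD2, measured 69.4, 71.6 and 68.1 CPM in shCONTROL and 69.6, 67.9 and 62.3 CPM in shBCLAF1. Its groups overlapped, with a log2 fold change of -0.062 (95% interval -0.20 to 0.071, adjusted p 0.448, edgeR).

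MNT (ENSG00000070444; chromosome 17, 2384073 to 2401060), the broadly expressed antagonist, measured 69.7, 65.5 and 69.1 CPM in shCONTROL and 61.8, 66.7 and 71.8 CPM in shBCLAF1. Its groups overlapped, with a log2 fold change of -0.024 (95% interval -0.18 to 0.13, adjusted p 0.810, edgeR), whose sign also turned under 3 alternatives. MGA (ENSG00000174197; chromosome 15, 41621224 to 41769940), the scaffold of a polycomb complex, measured 166, 178 and 177 CPM in shCONTROL and 172, 188 and 184 CPM in shBCLAF1. Its groups overlapped as well, with a log2 fold change of 0.069 (95% interval -0.054 to 0.19, adjusted p 0.360, edgeR).

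**Figure D1:**
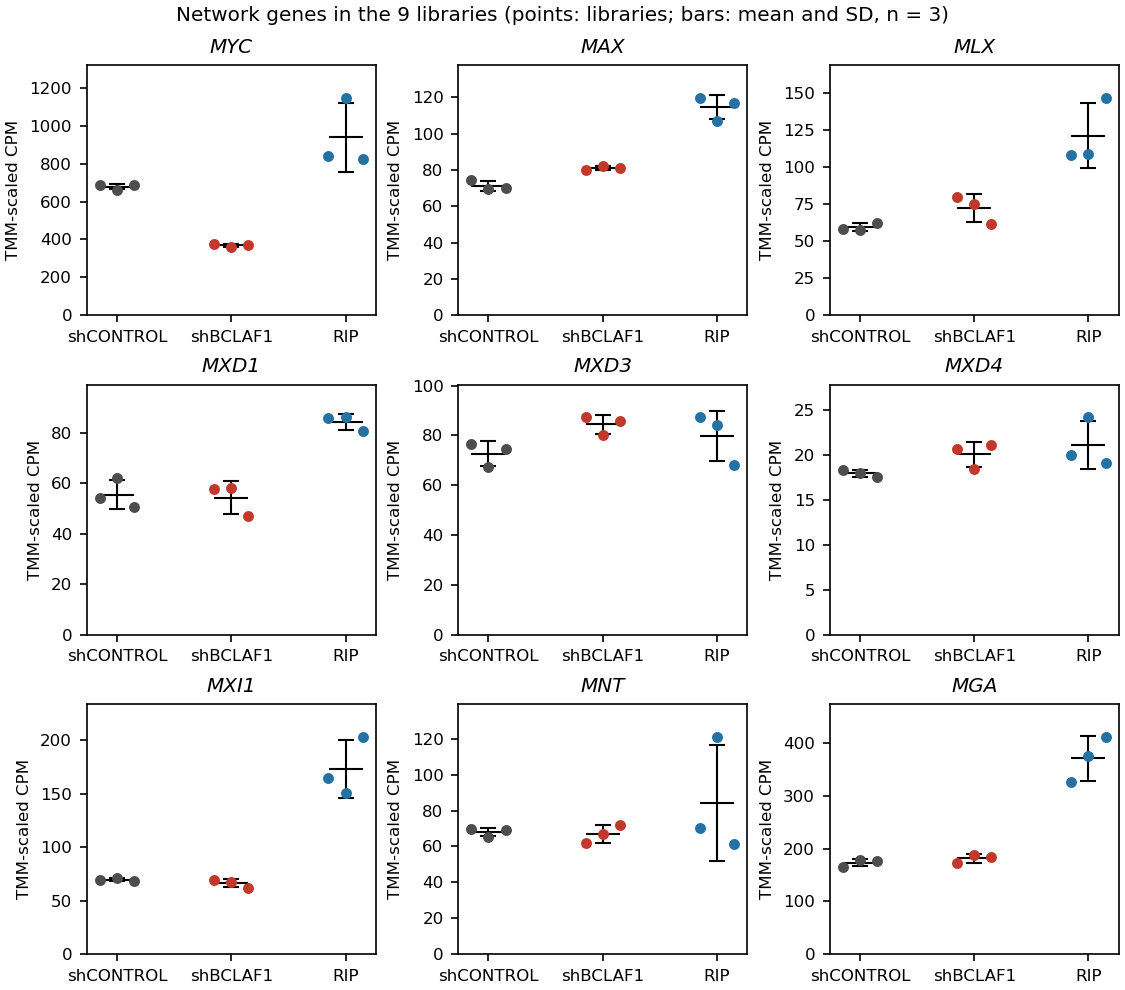
TMM-scaled CPM (vertical axes) of the 9 detected network genes in the 3 shCONTROL, 3 shBCLAF1 and 3 RIP libraries; points are libraries, bars the mean and SD. MYC sits at 663 to 688 CPM in shCONTROL and 361 to 375 CPM in shBCLAF1, and the antagonists change little between these groups.

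Because MYC and its antagonists compete for MAX, MYC counts were also set against each partner inside every library. Counts were not divided by transcript length, so only the change of such a ratio is read, not its level. The ratio of MYC to MAX counts was 9.22, 9.55 and 9.81 in shCONTROL and 4.705, 4.395 and 4.57 in shBCLAF1. The ratio of MYC to MXD3 counts was 8.999, 9.85 and 9.22 in shCONTROL and 4.29, 4.504 and 4.31 in shBCLAF1. For all 7 MAX-binding genes examined (MAX, MXD1, MXD3, MXD4, MXI1, MNT and MGA) the knock-down libraries lay under every control. The change in the mean log2 ratio ran from -1.10 for MXD3 to -0.81 for MXI1. Each had an exact two-sided permutation p of 0.1, the smallest that 3 against 3 libraries allow, and all 7 share the MYC counts. These ratios do not depend on the scaling between libraries.

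**Figure D2:**
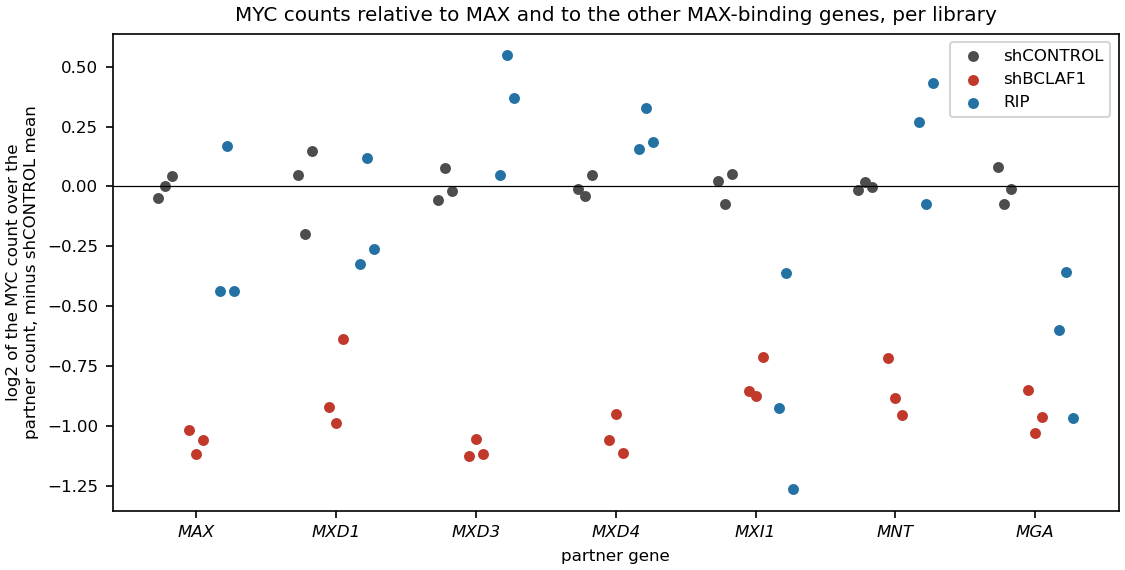
Log2 of the MYC count over the count of each of 7 MAX-binding genes, by library and group, relative to the shCONTROL mean. The shBCLAF1 points lie under all shCONTROL points for every partner, by -1.10 to -0.81 on average.

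PVT1, the long noncoding RNA gene beside MYC, fell as well. It measured 158, 174 and 190.0 CPM in shCONTROL and 112, 124 and 139 CPM in shBCLAF1, with a log2 fold change of -0.47 (adjusted p 0.0152, SE 0.10, edgeR). Its call was lost without shCONTROL replicate 2 (adjusted p 0.0542), shCONTROL replicate 3 (0.0583) or shBCLAF1 replicate 2 (0.0526). CASC11, CASC8 and MYCNUT, the other listed loci near MYC or MYCN found in the table besides MYCNOS, were at 0 in every library.

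Among genes that MYC is known to activate, most of those listed were lower after knock-down. Of 50 such growth and nucleolar genes, all tested, 34 were lower and 0 higher, against 16.9% and 15.5% of all genes. The median log2 fold change of the list was -0.32, beside 0.017 for all genes tested, and 16 did not pass. NPM1, a nucleolar chaperone of ribosome assembly, measured 543 ± 9.002 CPM in shCONTROL and 268 ± 9.82 CPM in shBCLAF1 (SD, n = 3 each), a log2 fold change of -1.02 (adjusted p 9.73e-05, edgeR). SHMT2, the mitochondrial serine hydroxymethyltransferase, fell by 0.87 on the log2 scale, the G1 cyclin gene CCND2 by 0.71 and NCL, which encodes nucleolin, by 0.44. In the fit of all 9 libraries 15 of the 50 were lower, with CCND2 and NCL no longer called (adjusted p 0.0994 and 0.105), and in fits leaving out 1 library 23 to 33 were. The list was chosen with earlier results known, so its count describes these libraries and is not independent evidence.

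Of the genes whose E-boxes are printed above, 5 were picked because they fell after knock-down, so their values are a description. ODC1, the first enzyme of polyamine synthesis, measured 169 ± 10.02 CPM in shCONTROL and 103 ± 4.03 CPM in shBCLAF1 (SD, n = 3 each), a fall of 0.71 on the log2 scale. HSPD1, the mitochondrial chaperonin, fell by 0.56, the spermidine synthase gene SRM by 0.40, the exosome subunit gene EXOSC5 by 0.39 and PRMT3, an arginine methyltransferase gene, by 0.37. Of the 22 listed genes with an E-box 17 were lower (median log2 fold change -0.35), and of the 19 matched genes without one 11 were (median -0.28). Among all tested genes with a promoter in the table, 22.7% of those with an E-box and 19.7% of those without one were lower. These shares are descriptions, and the difference between listed genes with and without the motif was not tested. MNT, MLX and MXD4, which also hold an E-box, did not pass in this comparison.

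Genes that MYC is known to repress did not move together. Of 11 listed, 9 were tested, 2 were higher (22.2%) and 3 lower (33.3%), against 15.5% and 16.9% of all genes. Their median log2 fold change was -0.086. The sign of that median turned with the replicate block (0.067) and without shCONTROL replicate 1 (0.027), shCONTROL replicate 2 (0.086) or shBCLAF1 replicate 2 (0.14). CDKN1A and CDKN2C, inhibitors of cyclin-dependent kinases, rose with log2 fold changes of 0.37 (adjusted p 0.00290, edgeR) and 0.32 (adjusted p 9.70e-04, edgeR). CCNG2, an atypical cyclin gene, fell by 0.85 on the log2 scale, the stress-response gene NDRG1 by 0.69 and GADD45B, a growth arrest gene, by 0.47. The CDKN1A call was lost when all 9 libraries entered 1 fit (adjusted p 0.0663).

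Genes of MYC cofactors and of the antagonists' co-repressor were called in both directions. Of 17 MYC cofactors 7 were lower (41.2%) and 1 higher (5.88%), against 16.9% and 15.5% of all genes. Their median log2 fold change was -0.094. CTR9, a subunit of the PAF1 elongation complex, fell by 0.54 on the log2 scale, EP400, a chromatin remodeller of the TIP60 complex, by 0.31 and RUVBL1, a helicase of the same complex, by 0.31. PAF1 was the cofactor gene that rose (log2 fold change 0.29, adjusted p 0.0104, edgeR). Of 17 genes of the SIN3 co-repressor 4 were lower and 2 higher, with a median of 0.11, so that 35.3% were called, near the 32.3% of all genes. SIN3B rose (log2 fold change 0.30), and its paralogue SIN3A fell by 0.21 and the deacetylase gene HDAC2 by 0.22 on the log2 scale.

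Of 10 partners of MGA in its polycomb complex 3 were higher (30.0%) and 1 lower (10.0%), against 15.5% and 16.9% of all genes. Their median log2 fold change was 0.040 (-0.010 without shBCLAF1 replicate 1). RYBP and its paralogue YAF2, bridging subunits, and the E2F partner gene TFDP1 rose with log2 fold changes of 0.57, 0.45 and 0.40, and CBX3, which encodes a heterochromatin protein, fell by 0.21 on the log2 scale. Of 17 regulators of MYC protein turnover 4 were lower and 1 higher, 29.4% against 32.3% of all genes. PIM2, a kinase reported to stabilise MYC, measured 36.4 ± 1.82 CPM in shCONTROL and 16.8 ± 0.168 CPM in shBCLAF1 (SD, n = 3 each), a log2 fold change of -1.11 (adjusted p 1.91e-04, edgeR). FBXW7, the ubiquitin ligase subunit that marks MYC for degradation, had a log2 fold change of 0.054 (adjusted p 0.586, edgeR).

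Of the genes named from these 4 lists, TFDP1, RYBP, CTR9 and PIM2 kept their calls in all 12 alternatives, while CBX3, SIN3B, HDAC2, PAF1, EP400 and RUVBL1 lost theirs in the fit of all 9 libraries. YAF2 and SIN3A lost theirs in 8 and 5 of 12, with adjusted p up to 0.128 and 0.0985 in edgeR. These included fits without 1 library: any of the 6 but shCONTROL replicate 1 for YAF2, and any shCONTROL library or shBCLAF1 replicate 2 for SIN3A.

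Most listed maturation genes were higher after knock-down, where MYC was lower, and most listed proliferation genes were lower. Of 15 myeloid maturation genes 13 were tested, 9 were higher and 0 lower, against 15.5% and 16.9% of all genes. VCAN, a proteoglycan gene of monocytes, had the lowest log2 fold change, -1.29, and did not pass (adjusted p 0.534, edgeR), and 1 gene of the list was called lower in DESeq2 (CSF1R) and 1 without shCONTROL replicate 3 (FCGR1A). Their summed level was 870 to 991 CPM in shCONTROL and 2806 to 3217 CPM in shBCLAF1, of which LYZ alone made 671 to 785 CPM and 2434 to 2819 CPM, and CD14 and FCN1 were at 0 in all libraries. S100A9, a calcium-binding protein of granulocytes and monocytes, rose with a log2 fold change of 3.61 and the oxidase subunit gene CYBB with 2.64. Of 15 proliferation genes 9 were lower and 0 higher, and 6 did not pass. PCNA, MCM6 and MCM5, genes of the replication machinery, fell by 0.97, 0.82 and 0.49 on the log2 scale, and the summed level of that list was 4147 to 4472 CPM in shCONTROL and 3451 to 3751 CPM in shBCLAF1. TOP2A and CCNA2 of that list changed less, at -0.16 and -0.13, and CCNA2 did not pass (adjusted p 0.164, edgeR). The TOP2A call was lost in 7 of 12 alternatives. The part of maturation and of proliferation in the MYC difference was not tested.

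**Figure D3:**
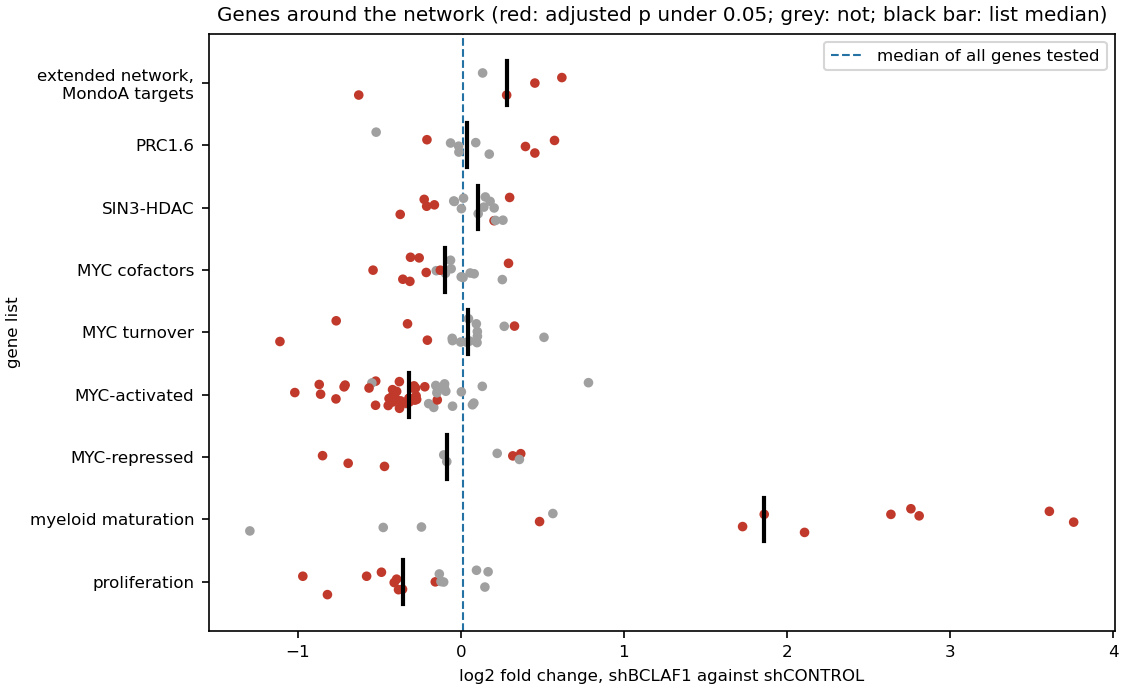
Log2 fold change (horizontal axis) after knock-down of each tested gene in the lists around the network; red points passed an adjusted p of 0.05, black bars are list medians and the dashed line is the median of all genes tested. The MYC-activated list centres at -0.32 and the myeloid maturation list at 1.86.

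The RIP comparison addresses which RNAs come down with BCLAF1 more than their level in the cells would give. Its reference was the RNA-seq of shCONTROL cells, and no mock precipitation was analysed here, so recovery with BCLAF1 and the background of the precipitation cannot be told apart. It shares the shCONTROL libraries with the knock-down comparison, so the values of both are set side by side and not correlated. Of the 9 network genes tested 5 were called in the RIP, all higher, against 49.2% of all 16727 genes called, 24.6% higher and 24.7% lower. MXI1, MGA and MLX also had a log2 fold change of at least 1 and were called enriched, as 11.0% of all genes were, and 0 were depleted by that measure, as 13.5% of all genes were.

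MXI1 measured 164, 151 and 203 CPM in the RIP, against 68.1 to 71.6 CPM in shCONTROL. Its log2 fold change of 1.30 (adjusted p 5.79e-04, SE 0.12, edgeR) was the highest of the 9 network genes. MGA measured 325, 375 and 412 CPM in the RIP, with a log2 fold change of 1.09 (adjusted p 7.54e-04, SE 0.11, edgeR). MLX measured 108, 109 and 147 CPM there, replicate 3 standing highest, with a log2 fold change of 1.02 (adjusted p 0.00185, SE 0.14, edgeR). All RIP libraries lay above all controls for these 3 genes. Their adjusted p passed in each of 13 alternatives, but the minimum of 1 was not always met. MGA stood at 0.97 under total counts, and MLX at 0.90 under total counts, 0.87 without RIP replicate 3, 0.995 without shCONTROL replicate 2 and 0.89 with the shBCLAF1 RNA-seq averaged into the reference.

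MAX and MXD1 were also higher in the RIP, short of that minimum. MAX measured 119.7, 107 and 117 CPM in the RIP (log2 fold change 0.68, SE 0.079, adjusted p 0.00110, edgeR). MXD1 measured 85.9, 86.2 and 80.6 CPM (log2 fold change 0.59, SE 0.096, adjusted p 0.00353, edgeR). For both, every RIP library was above every control. FNTB, which overlaps MAX, had 584 to 665 counts in shCONTROL and 238 to 304 counts in the RIP. These FNTB counts are not scaled for library totals, which were lower in the RIP (25819144 to 31568985) than in shCONTROL (33076169 to 35305650).

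MYC measured 842, 1147 and 825 CPM in the RIP, above every control, with replicate 2 apart from the other 2 libraries. Its log2 fold change of 0.46 (SE 0.16, 95% interval 0.068 to 0.85) just missed the threshold (adjusted p 0.0564, edgeR). It passed in 7 of 13 alternatives, which included DESeq2 (adjusted p 0.00637) and the fits without RIP replicate 1 (0.0463), 2 (0.0258) or 3 (0.0352), and the adjusted p ran up to 0.160, without shCONTROL replicate 2. Without RIP replicate 2 the log2 fold change was 0.28. Set against the 7 MAX-binding genes inside each library, MYC had no common direction in the RIP. The change in the mean log2 ratio was -0.85 for MXI1, -0.64 for MGA, -0.23 for MAX and -0.16 for MXD1, and 0.32 for MXD3, 0.22 for MXD4 and 0.21 for MNT. The groups did not overlap for MXI1, MGA and MXD4 (exact two-sided permutation p 0.1 each), and the other 4 had p of 0.2 to 0.4 by the same exact test.

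MNT, MXD3 and MXD4 did not pass in the RIP. MNT measured 70.1, 121 and 61.3 CPM, again with replicate 2 apart, and its log2 fold change was 0.30 (95% interval -0.35 to 0.95, adjusted p 0.384, edgeR), turning to -0.067 without that library. MXD3 measured 87.2, 84.02 and 68.3 CPM, overlapping the controls (log2 fold change 0.13, 95% interval -0.17 to 0.42, adjusted p 0.422, edgeR). MXD4 measured 19.95, 24.2 and 19.1 CPM, slightly above every control (log2 fold change 0.23, 95% interval -0.078 to 0.53, adjusted p 0.182, edgeR).

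Of the extended network, MYCL was enriched, with a log2 fold change of 1.00 (adjusted p 9.75e-04, SE 0.11, edgeR), which fell short of 1 under total counts (0.88), without shCONTROL replicate 3 (0.93), without RIP replicate 2 (0.97) and with the shBCLAF1 RNA-seq averaged into the reference (0.78). MLXIP measured 179.9, 303 and 121 CPM in the RIP, replicate 2 standing apart, and did not pass (log2 fold change 0.93, adjusted p 0.0589, edgeR). Without that library its log2 fold change was 0.50 (adjusted p 0.0731, edgeR). MLXIPL was listed at 56, 0 and 0 counts there.

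**Figure D4:**
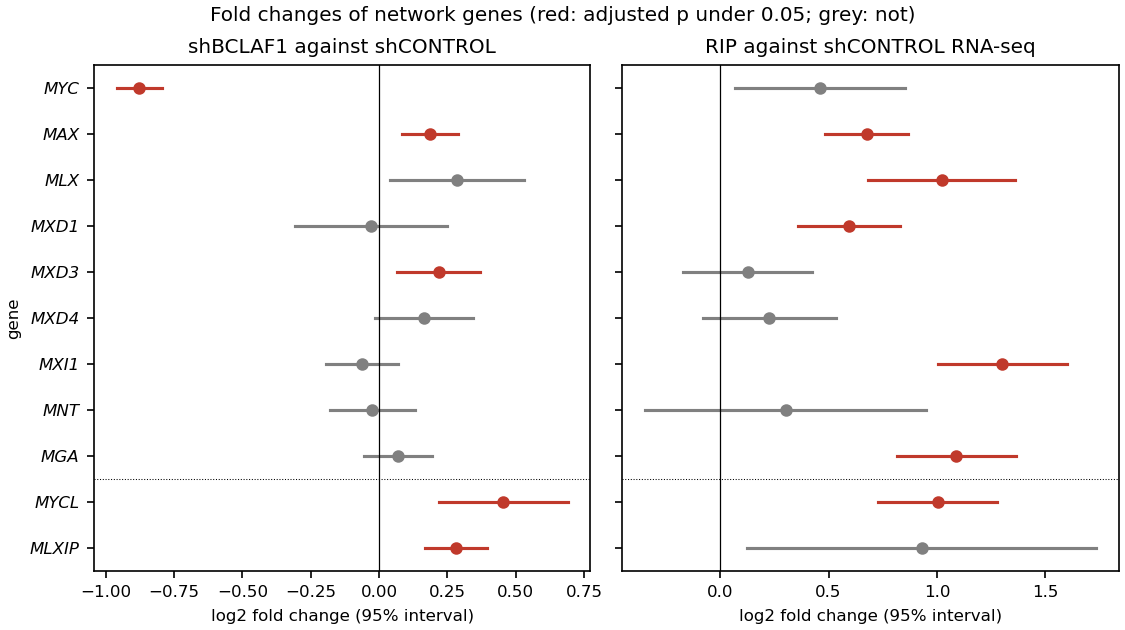
Log2 fold changes (horizontal axes) with 95% intervals of the 9 detected network genes, and of MYCL and MLXIP under the dotted line, after knock-down (left) and in the RIP (right); red marks an adjusted p under 0.05. MYC is the network gene that fell after knock-down, at -0.88, and MXI1, at 1.30, has the highest value in the RIP.

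Around the network, genes of the SIN3 co-repressor were mostly higher in the RIP. Of the 17 genes 11 were higher (64.7%) and 0 lower, against 24.6% and 24.7% of all genes. Their median log2 fold change was 0.85, beside -0.049 for all genes tested. SUDS3 and BRMS1L, which encode SIN3 complex subunits, had log2 fold changes of 1.59 and 1.70. Of the 17 MYC cofactors 9 were higher (52.9%) and 0 lower, against the same shares of all genes, with a median of 0.52. In fits leaving out 1 library 6 to 10 of these cofactors were higher, with medians from 0.25 to 0.61. KAT5, the acetyltransferase gene of the TIP60 complex, had a log2 fold change of 1.79 and CDC73, a PAF1 complex gene, one of 1.21.

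The other lists held genes called in both directions in the RIP, where 24.6% of all genes were higher and 24.7% lower. Of the 10 MGA partners 4 were higher and 3 lower, from TFDP1 with a log2 fold change of 1.83 to PCGF6, the defining subunit of that complex, with -1.36. Of the 17 turnover regulators 4 were higher and 4 lower (23.5% each way), near the shares of all genes. STUB1, a chaperone-linked ubiquitin ligase gene, had a log2 fold change of 1.96, FBXW7 1.6 and PIM2 -1.11. Of the 50 MYC-activated genes 20 were higher and 14 lower, with a median of 0.10. NCL and DKC1, nucleolar genes, had log2 fold changes of 1.70 and 1.5, while TFB2M, a mitochondrial transcription factor gene, had -1.90 and EXOSC5 -1.17. Of the 10 MYC-repressed genes tested 3 were higher and 5 lower. Total counts in place of TMM moved the median of all genes in the RIP to -0.16 and that of the MYC-activated list to -0.013, so the sign of the latter depends on the scaling.

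In the RIP 2 of the 13 maturation genes tested were higher and 5 lower, their sum being 234 to 285 CPM, and of the 15 proliferation genes 6 were higher and 5 lower. Of all genes 24.6% were higher and 24.7% lower. MNDA, a myeloid nuclear antigen gene, had a log2 fold change of 1.39 and LYZ, the lysozyme gene, -3.97.

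**Figure D5:**
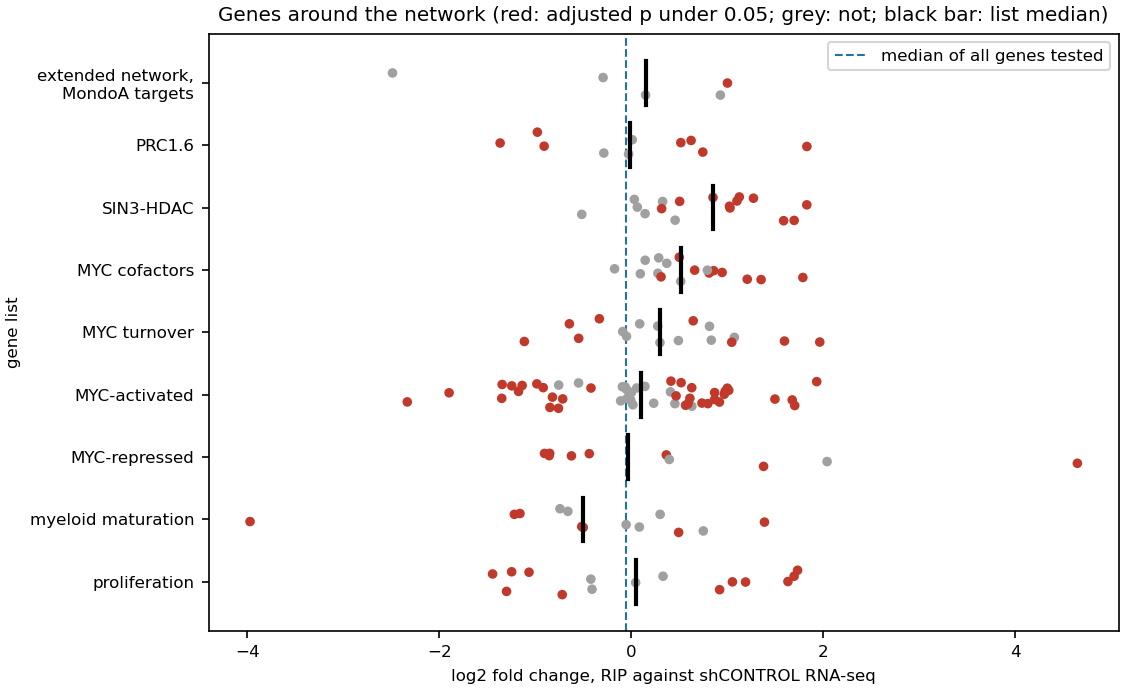
Log2 fold change (horizontal axis) in the RIP against shCONTROL RNA-seq of each tested gene in the same lists; red points passed an adjusted p of 0.05, black bars are list medians and the dashed line is the median of all genes tested. The SIN3 list centres at 0.85 and the MYC-activated list at 0.10; the point at the far right is GADD45G, listed at 0 in shCONTROL, whose fitted value is no bound.

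Some genes followed the MYC pattern closely over the 9 libraries. Among 11856 genes with a symbol, a mean of at least 50 counts and no 0, the highest Pearson correlations of log2(CPM + 1) with MYC were those of RRP1B (0.999), GATA2 (0.996), JAG2 (0.991), ATP8B2 (0.989), CCND1 (0.989). RRP1B, a nucleolar protein gene, measured 132 ± 7.88 CPM in controls, 66.3 ± 2.19 CPM after knock-down and 189.7 ± 40.3 CPM in the RIP (SD, n = 3 each). GATA2, a transcription factor gene of progenitors, measured 138 ± 3.99, 68.7 ± 3.57 and 198 ± 51.8 CPM in the same order (SD, n = 3 each). RIP replicate 2 was the highest library for both, as it was for MYC. For MAX the closest were DDA1 (0.994), TTLL5 (0.993), DYNC1LI2 (0.992), PIK3R1 (0.992), KMT2B (0.992). These values describe 3 groups in 9 libraries that share scaling and depth, and carry no test.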

How the data were processed

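RNA was sequenced from 9 MOLM-13 libraries, 3 each of shCONTROL, shBCLAF1 and BCLAF1 RIP, with a strand-specific kit that depletes ribosomal RNA, per the labels' protocols. The authors deposited 1 table of estimated counts (expected counts) per gene, whole numbers with no normalization. The submitters' processing notes name STAR 2.7.11b, StringTie 2.2.3 and hg38, while the annotation and the use of strand in counting are not given in the sources used here. An entry with no gene name, with 2.18% to 3.75% of the counts in 8 libraries, was left out of totals and fits.

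Each comparison was fitted on its own 6 libraries with edgeR 4.0.16 in R 4.3.3 (filter on low counts, TMM, prior count 2, quasi-likelihood test with group as the only term, Benjamini-Hochberg adjustment, threshold 0.05). Enriched and depleted genes also had to change by 1 or more on the log2 scale. Standard errors and 95% intervals came from the coefficient and its F statistic. The limit of 3 counts is one of counting error alone, as PCR copies cannot be recognised here. The procedure was also run on simulated data with the same spread for every gene. That setting is simpler than these libraries, so it does not bear out the calls given here.

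The network genes and lists were chosen with earlier results of these data known. Named were all network genes, BCLAF1, the extended network and PVT1. From each list up to 3 genes each way with the smallest adjusted p and a mean of at least 50 counts could be named after knock-down, and up to 2 each way in the RIP among those enriched or depleted; some of these are not reported here. ODC1, HSPD1, SRM and PRMT3 were chosen after their values were seen, by p among genes with an E-box outside chromosome 8. Also chosen after their values were seen were VCAN, CSF1R and FCGR1A, for the low end of their list, and TOP2A and CCNA2, for smaller changes in theirs. FNTB, PRELID1 and PSMC3IP were chosen for their overlap. Alternatives were RLE and total-count scaling, DESeq2 1.42.0, no filter, 1 fit of all libraries, a replicate block, another RIP reference and leaving out each library.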

Additional observations from a re-analysis of the deposited data

How the results depend on the processing

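The fall of MYC after knock-down kept its direction and side of the threshold in all 12 alternatives. The count of genes called after knock-down, 2625 higher and 2859 lower, became 1129 and 1318 in the fit of all 9 libraries and 301 and 380 when a change of 1 or more on the log2 scale was required. Of the network genes the 2 higher calls became 1 with no filter, 0 in the fit of all 9 libraries, 1 with the replicate block, 3 under total counts, 3 in DESeq2 and 0 to 2 in fits leaving out 1 library, and with that minimum change there were 0 higher and 0 lower. In the RIP that minimum left 1846 genes higher and 2253 lower, with 3 network genes higher. Correlations of same-numbered deviations were weak, at 0.026, 0.084 and 0.035 in the knock-down and -0.023, 0.018 and 0.020 in the RIP. After knock-down, though, every library correlated best with its own number, the others running from -0.048 to 0.0097. Whether the libraries were paired by number is therefore not settled. With the replicate block 2271 genes were higher and 2538 lower after knock-down, and 3244 and 3262 in the RIP. Signs of named genes turned as follows, and the cause was not tested. The signs of the MYC-repressed and polycomb list medians after knock-down turned too, with ranges of -0.13 to 0.14 and -0.010 to 0.093 leaving out 1 library, and the block gave 0.067 for the former. Under total counts the knock-down values were 0.021 for MXD1, 0.028 for MNT and 0.052 for STUB1, and the RIP values -0.10 for CBX3 and -0.082 for HDAC2. The block gave 0.0022 for STUB1 after knock-down. Leaving out 1 library, knock-down values ran from -0.086 to 0.069 for MXD1, -0.078 to 0.028 for MNT, -0.030 to 0.073 for KAT5, -0.063 to 0.11 for STUB1 and -0.071 to 0.32 for MLXIPL. RIP values ran from -0.067 to 0.49 for MNT, -0.065 to 0.10 for HDAC2 and -0.052 to 0.075 for CBX3. MYC passed in the RIP in 7 of 13 alternatives. MYCN was listed at 0 throughout, which sets no firm upper limit, since other genes of this table were at 0 beside 100 counts or more in a replicate.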
